A study of Mus musculus with 3 samples.

Results

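Pim1, Pim2 and Pim3 are the 3 genes of the mouse Pim kinase family, and all 3 were found by symbol among the 24467 genes counted. They were measured in 3 libraries of polyadenylated RNA from 5TGM1.BRE, an engraftable bortezomib-resistant line of mouse multiple myeloma. 5TGM1 comes from a myeloma that arose in C57BL/KaLwRij mice, and marrow of this strain was the source of the 5TGM1.BRE cells. Bortezomib inhibits the proteasome. The cells were kept in 10 nM of it, with at least 72 h off the drug ahead of RNA extraction. The libraries form 1 group of 1 cultured line, with no untreated or drug-sensitive cells analysed here, so the results are levels, and no effect of resistance was measured. No label tells if each replicate was its own culture, so SDs and p-values measure the spread among these 3 samples alone, possibly a technical one. In bulk RNA, fewer expressing cells and less RNA per cell cannot be told apart.

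Pim kinases are serine/threonine kinases of the CAMK group that are active as soon as they are made. They lack a regulatory domain, so their activity is set largely by how much transcript and protein a cell holds. The first gene was found as a site of proviral insertion in mouse lymphomas. Cytokine receptors acting through JAK kinases and STAT factors, and NF-kappaB, induce the genes, and the kinases phosphorylate proteins of apoptosis, the cell cycle, translation and transcription. PIM2 is known as a survival kinase of human myeloma cells.

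All 3 genes lie on the plus strand of GRCm38 and have a main transcript of 6 exons. Pim1 is on chromosome 17 at 29490753 to 29496112, Pim2 on chromosome X at 7878262 to 7883432 and Pim3 on chromosome 15 at 88862186 to 88865726. Their coding sequences are related but distinct: aligned bases were identical at 74.5% of positions between Pim1 and Pim3, at 66.0% between Pim1 and Pim2, and at 66.5% between Pim2 and Pim3. The longest run of identical bases was 24 between Pim1 and Pim3 and 17 in each of the other pairs. The Pim1 and Pim3 run lies in exon 4, in the part that encodes the catalytic loop of the kinase. The 60 coding bases around it are shown because they hold the longest identical stretch of any pair. They come from the GENCODE M21 transcripts (GRCm38, plus strand), from chr17:29491899-29491958, chrX:7881488-7881547 and chr15:88863416-88863475, and capitals mark the 39 bases that all 3 genes share.
Pim1: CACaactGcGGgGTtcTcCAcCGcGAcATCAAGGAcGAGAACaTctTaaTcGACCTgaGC
Pim2: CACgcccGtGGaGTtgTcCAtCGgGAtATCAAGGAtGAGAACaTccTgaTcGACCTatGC
Pim3: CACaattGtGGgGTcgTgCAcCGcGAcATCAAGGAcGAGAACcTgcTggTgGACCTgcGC

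No stretch of 50 bases or more in the main Pim2 or Pim3 transcript matched a transcript of another gene exactly. In Pim1, 469 of 2698 bases (17.4%) matched Gm26885, an antisense gene that overlaps the 5′ part of Pim1 on the minus strand. Whether counting used strand is not stated by the sources used here. If it did not, reads from Gm26885 could have been counted as Pim1. Gm26885 is not among the symbols in the deposited counts, so this could not be checked. The nearest protein-coding genes to Pim2 are Otud5, which ends 1635 bases before it, and Slc35a2, which starts 595 bases after it, and neither overlaps it. Otud5 had 8102, 5832 and 7258 counts in replicates 1, 2 and 3, and Slc35a2 had 1442, 1145 and 1588. Pim1 and Pim3 have wider gaps to their neighbours, 22529 bases or more for Pim1 (Fgd2 and Gm17657) and 24906 or more for Pim3 (Creld2 and Ttll8).

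Pim1, and not Pim2, was the most abundant Pim transcript per length of exon, and all 3 genes were well above the limit of detection in every library. Pim1 had 51584, 37933 and 50104 counts in replicates 1, 2 and 3, or 828, 829.9 and 843 counts per 1000000 counts of the library (CPM). Its mean was 834 ± 8.45 CPM (SD, n = 3). The 3 libraries were close, with replicate 3 the highest.

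Pim2 had 8203, 5976 and 8547 counts, or 132, 131 and 144 CPM. Its mean was 135 ± 7.33 CPM (SD, n = 3). Replicates 1 and 2 were close and replicate 3 stood above both.

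Pim3, the member most like Pim1 in coding sequence, had 3028, 2258 and 3183 counts, or 48.6, 49.4 and 53.6 CPM. Its mean was 50.5 ± 2.68 CPM (SD, n = 3), and replicate 3 was again the highest.

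**Figure D1:**
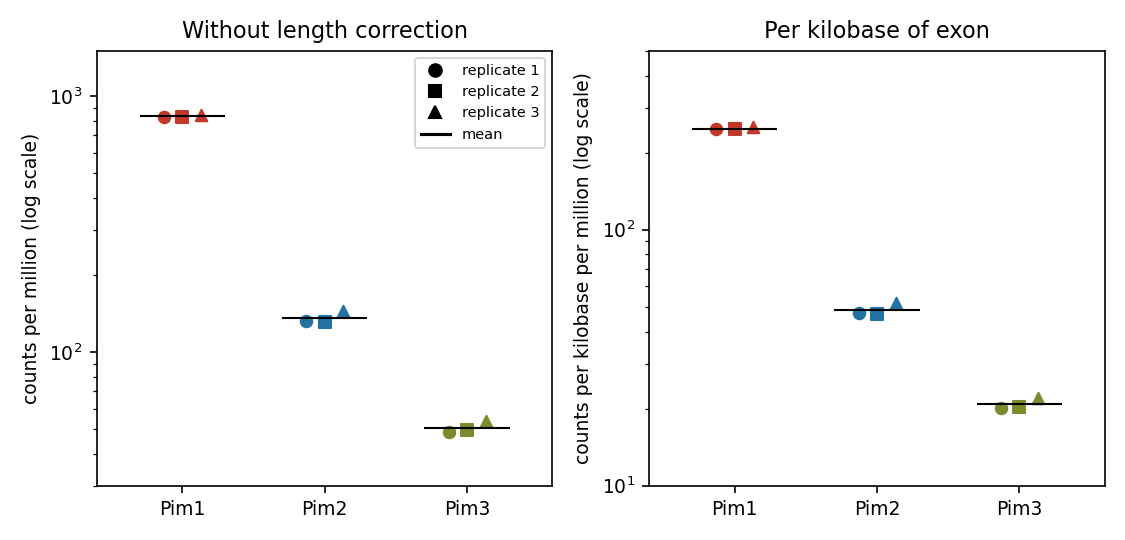
Level of each Pim gene in each of 3 libraries (symbols) with the mean (line), in CPM on the left and in CPM per kilobase of exon on the right, both on log axes. Pim1 lies above Pim2 and Pim2 above Pim3 in every library on both scales, and replicate 3 is the highest library for each gene.

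Levels can be compared between genes only per length, so counts were also divided by the union length of all annotated exons. On this scale of CPM per kilobase, Pim1 was at 246, 247 and 251 (mean 248 ± 2.51), Pim2 at 47.1, 46.8 and 51.5 (mean 48.5 ± 2.62) and Pim3 at 20.0, 20.4 and 22.1 (mean 20.8 ± 1.10; SD, n = 3 for each). The ranges of the 3 genes did not overlap. Of the 16124 genes with a count and a length, 98.8% lay below Pim1, 92.4% below Pim2 and 82.7% below Pim3, which ranked 187, 1233 and 2790. Pim1 made up 78.2 ± 0.734% of the summed Pim level per kilobase, Pim2 15.3 ± 0.525% and Pim3 6.56 ± 0.218% (SD, n = 3).

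Within each library Pim1 exceeded Pim2 per kilobase, by 2.39, 2.40 and 2.28 on the log2 scale, a mean of 2.36 ± 0.063 (SD, n = 3) or 5.12-fold. It exceeded Pim3 by 3.58 ± 0.061 on the log2 scale, or 11.9-fold, and Pim2 exceeded Pim3 by 1.22 ± 0.017, or 2.33-fold (SD, n = 3). Each difference had the same sign in 3 of 3 libraries and was many times its SD. For each of the 3 ratios, an exact permutation test by sign flips, two-sided, had p = 0.25 (0.25 after Benjamini-Hochberg adjustment), the smallest p that 3 libraries allow. The order of the genes was the same under every length tried, although the excess of Pim1 over Pim3 ranged up to 17.2-fold with the coding length. The annotated coding sequence of Pim2 begins without a usual start codon and has 1127 bases, against 939 in Pim1 and 978 in Pim3. The Pim2 length is not a whole number of codons, so its annotation may be incomplete. Ratios of Pim2 by coding length are therefore uncertain.

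**Figure D2:**
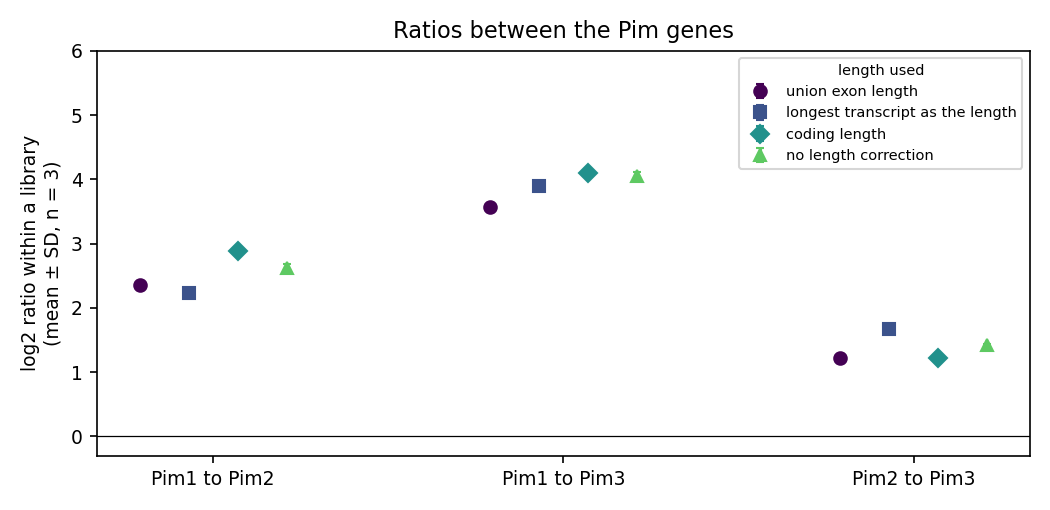
Log2 ratio between Pim genes within a library, mean ± SD of 3 libraries, with 4 choices of gene length (symbols). Every ratio lies above 0 under each choice, and the choice moves a ratio by more than the SD in 8 of 9 cases, the exception being Pim2 to Pim3 with the coding length.

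Among kinases of the same group, Pim1 stood alone at the top. Pim1 ranked 1 of 52 by CPM per kilobase when set beside 49 other CAMK group kinases. Of these 49, 28 were at 1 CPM or more in every library (57.1%, against 40.9% of all genes and 61.6% of genes with a count). The median of the 49 was 1.85 CPM per kilobase, against 2.45 over all genes with a count. Next below Pim1 was Mapkapk2, the p38-activated kinase MK2, at 67.7 ± 1.48 CPM per kilobase (SD, n = 3). Pim2 ranked 3, with the range of Stk11, which encodes the tumour suppressor kinase LKB1, below it at 33.1 ± 1.10 (SD, n = 3) and not overlapping. Pim3 ranked 10, between Mknk2, which encodes a kinase of the initiation factor eIF4E, and the checkpoint kinase gene Chek2. Its range over the libraries, 20.0 to 22.1, overlapped that of Mknk2 (20.9 to 23.2) but not that of Chek2 (18.7 to 19.7). Mknk1 was at 32.0 ± 1.28 (SD, n = 3). By CPM, without length, Pim2 ranked 6 and Pim3 18. Prkaa2, which encodes a catalytic subunit of AMPK, had 0 counts in every library, which allows up to 0.0179 CPM over all 167411705 counts, a limit that covers counting error only.

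**Figure D3:**
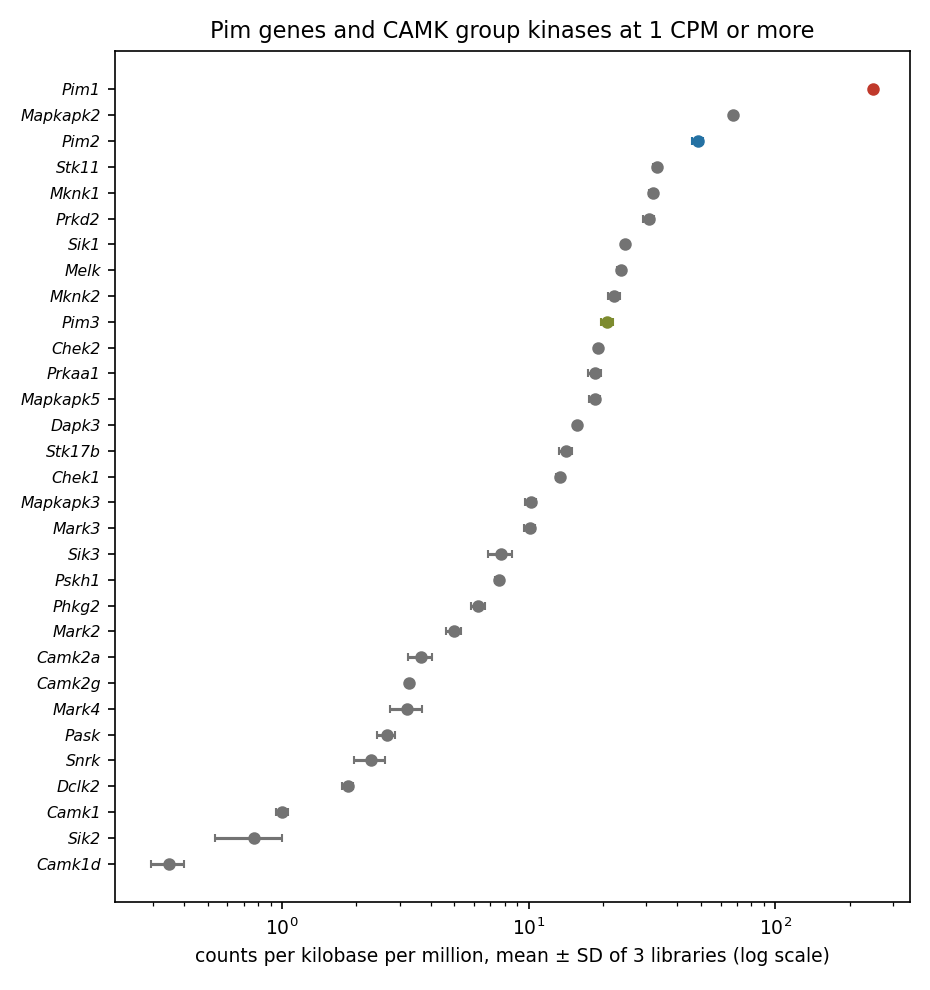
CPM per kilobase (mean ± SD of 3 libraries, log axis) for the Pim genes (coloured) and the 28 CAMK group kinases at 1 CPM or more in every library. Pim1 at 248 lies above Mapkapk2 at 67.7, Pim2 ranks 3 and Pim3 10.

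Other growth and survival kinases were below Pim1 as well. Of 10 such genes, 9 were at 1 CPM or more in every library, with a median of 7.06 CPM per kilobase, against 2.45 over all genes with a count. Akt1, a survival kinase that shares substrates with the Pim kinases, led them at 59.1 ± 2.48 and was the 1 gene of the 10 above Pim2. Rps6ka3, at 21.4 ± 2.73, was above Pim3 by less than its SD, and Rps6kb1, the S6 kinase of mTOR signalling, was at 10.3 ± 0.262 (SD, n = 3 for each). Sgk1 had 1, 0 and 0 counts.

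The receptors and kinases that induce Pim genes were present at lower levels than the Pim genes. Of 17 cytokine receptor and JAK-STAT genes, 14 were at 1 CPM or more in every library (82.4%), with a median of 4.79 CPM per kilobase. The highest were the interferon receptor gene Ifnar1 at 18.8 ± 1.99, the common gamma chain gene Il2rg at 11.9 ± 0.243 and Ifngr1 at 11.7 ± 0.456 (SD, n = 3 for each), and no mean in the list exceeded that of Pim3. Il6ra, the receptor for the myeloma growth factor IL-6, had 901, 678 and 656 counts, and Il6st, its signalling chain gp130, had 9486, 6349 and 5448. Stat3, the factor that acts below them, was at 5.67 ± 0.537 CPM per kilobase (SD, n = 3), and the kinase gene Jak2 had 3974, 2743 and 2926 counts. Jak1 was the lowest of the 4 JAK genes, at 0.347 ± 0.0263 (SD, n = 3), with 164, 119 and 136 counts.

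Of 7 other genes that STAT factors induce, 3 were at 1 CPM or more in every library (42.9%, near the 40.9% of all genes): Junb, an AP-1 subunit, at 21.2 ± 1.14, and the feedback inhibitors Socs2 at 0.912 ± 0.0681 and Cish at 0.339 ± 0.0462 CPM per kilobase (SD, n = 3 for each). Socs3, the inhibitor of gp130 signalling, had 1, 0 and 1 counts, and Socs1, whose product the Pim kinases phosphorylate, had 25, 21 and 23.

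All 10 genes of the NF-kappaB list were at 1 CPM or more in every library, with a median of 4.81 CPM per kilobase. Nfkbia, which encodes the inhibitor IκBα, was at 71.1 ± 3.06 and Chuk, which encodes IKKα, at 37.7 ± 0.941 (SD, n = 3), between Pim1 and Pim3. The subunit gene Rela was at 11.5 ± 0.278 (SD, n = 3).

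The Pim substrates and partners were read in 4 lists. In apoptosis, drug export, homing and p53 control, 5 of 7 genes were at 1 CPM or more in every library, led by the chemokine receptor gene Cxcr4 at 44.4 ± 1.39 and the p53 ligase gene Mdm2 at 31.6 ± 2.27 CPM per kilobase (SD, n = 3). Map3k5, which encodes the stress kinase ASK1, was at 14.7 ± 1.36 (SD, n = 3). Bad, the cell death protein that Pim kinases inactivate by phosphorylation, was at 10.3 ± 0.887 (SD, n = 3). The remaining 2, the drug pump genes Abcb1a and Abcg2, had at most 3 counts in a library, whereas Abcb1b was at 14.5 ± 1.93 (SD, n = 3). All 7 cell cycle substrates were at 1 CPM or more in every library, led by the inhibitors Cdkn1a at 74.9 ± 3.28 and Cdkn1b at 29.5 ± 0.93 and by the spindle protein gene Numa1 at 18.5 ± 2.78 (SD, n = 3 for each).

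All 5 substrates in translation and mTOR signalling reached the same limit. Eif4b, an initiation factor, was at 174 ± 13.1 and Eif4ebp1, the cap-binding repressor 4E-BP1, at 98.0 ± 12.5 CPM per kilobase (SD, n = 3). Akt1s1, the mTOR inhibitor PRAS40, was at 11.7 ± 0.936 (SD, n = 3). Of 9 substrates and partners in transcription and chromatin, 7 reached it, led by Myc at 171 ± 2.83 (SD, n = 3), the oncogene with which Pim genes cooperate in mouse lymphoma. The coactivator gene Snd1 was at 20.4 ± 1.19 and the forkhead factor gene Foxo1 at 12.4 ± 1.13 (SD, n = 3). Runx3 had 0 counts in every library and Myb had 2, 1 and 6.

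Genes for proteins that stabilise, bind or dephosphorylate Pim kinases had the highest median of the 10 pathway lists, 62.5 CPM per kilobase. All 9 genes were at 1 CPM or more. Hsp90ab1, which encodes a chaperone that stabilises Pim kinases, was at 1365 ± 29.9. It was the 1 gene above Pim1 among the 129 of the 10 pathway lists. Hsp90aa1 was at 224 ± 18.2 and Ppp2cb, a catalytic subunit of the phosphatase PP2A, at 143 ± 8.97 (SD, n = 3 for each). Across the 129 genes, 13 lay above Pim2 and 26 above Pim3 by their means.

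**Figure D4:**
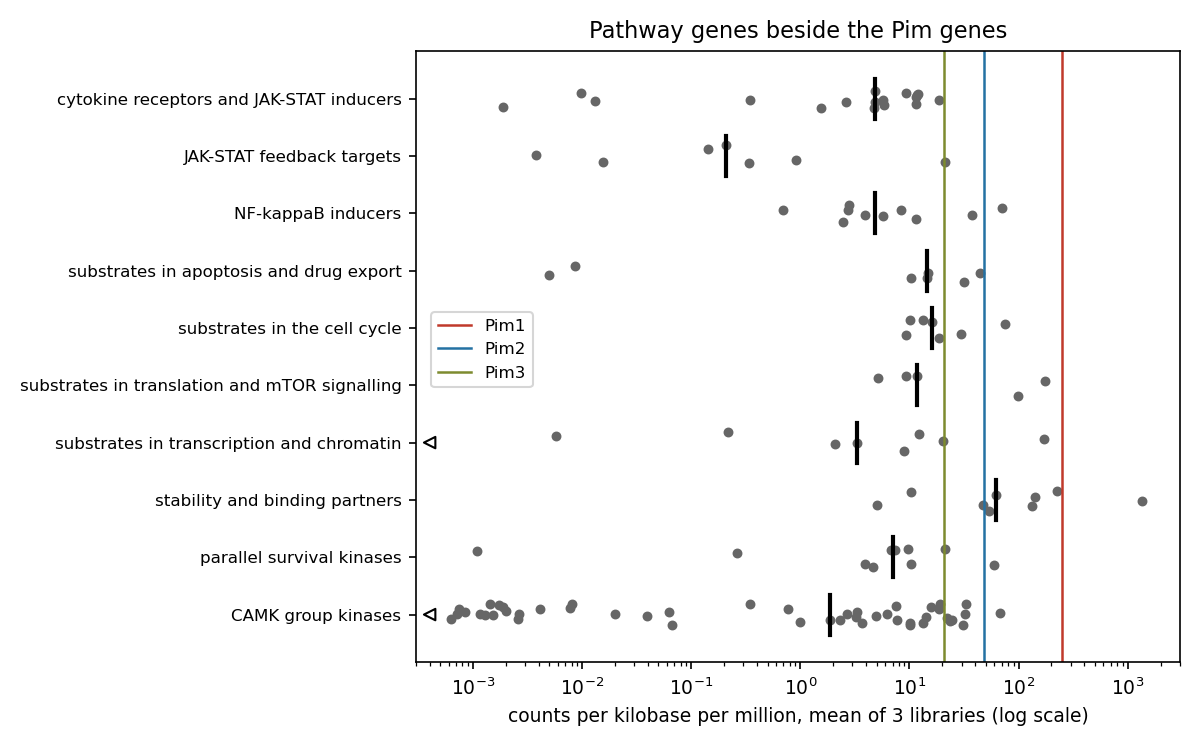
CPM per kilobase (mean of 3 libraries, log axis) of every gene in 10 pathway lists (points), with the list median (black bar) and the level of each Pim gene (coloured lines). Open triangles at the left mark genes with 0 counts in all libraries, and 1 gene, Hsp90ab1 at 1365, lies to the right of Pim1.

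The genes closest in level to each Pim gene were of other families. By the root mean square difference of log2(CPM per kilobase + 1) over the 3 libraries, the 3 nearest to Pim1 were the chaperonin gene Cct5, the glycolysis gene Tpi1 and Rsl1d1, at differences of 0.0313, 0.0398 and 0.0494. Those nearest to Pim2 were Mdh2, Pole3 and Mrpl50, and those nearest to Pim3 were Tmem161a, H2afy and Acy1. With 3 libraries of 1 group this measures likeness of level and little else.

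Scaled by library totals, Pim1 varied little between libraries, while Pim2 and Pim3 varied nearer to the typical gene. The coefficient of variation of CPM was 1.01% for Pim1, 5.42% for Pim2 and 5.30% for Pim3, against a median of 7.23% over the 10016 genes at 1 CPM or more in every library. Of those genes, 2.59% varied less than Pim1, 36.0% less than Pim2 and 35.2% less than Pim3. These shares were not matched for level, and counting error shrinks as counts rise. It was 0.464% for Pim1, 1.15% for Pim2 and 1.88% for Pim3. The spread exceeded it in each, with a chi-square per degree of freedom of 5.0, 22.5 and 8.3. With TMM or RLE scaling the SD of Pim1 rose from 8.45 to 19.9 or 15.5 CPM. Each library was also set against the other two with edgeR's quasi-likelihood test. The fit has 1 residual degree of freedom, so the spread comes from the other two libraries and the lone library is assumed to vary like them. A call therefore describes these libraries, not a condition. Replicates 1 and 2 were closer to each other than either was to replicate 3. At an adjusted p of 0.05, 51.6% of 11308 genes were called in replicate 3, 24.8% higher and 26.8% lower.

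In replicate 3 all 3 Pim genes were higher than in the other libraries, in edgeR and in DESeq2. Pim2 was higher there by 0.16 on the log2 scale (SE 0.040, edgeR adjusted p = 0.00015, DESeq2 adjusted p = 0.035). Pim3 was higher by 0.16 in edgeR (SE 0.049, adjusted p = 0.0028) but did not pass in DESeq2 (0.15, adjusted p = 0.17). These differences were of ordinary size in that library, with 47.5% and 46.6% of all genes showing a smaller absolute difference than Pim2 and Pim3. Pim1 had a difference of 0.06 (SE 0.045, edgeR adjusted p = 0.31), and 16.5% of genes had a smaller one. With the trend of the difference on union exon length removed, the log2 differences were 0.06 for Pim2 (SE 0.040) and 0.02 for Pim3 (SE 0.049). Then 0 of 3 Pim genes passed, beside 33.8% of all genes (16.1% higher and 17.7% lower). The edgeR fits of replicates 1 and 2 held replicate 3 in their reference, which widened the spread. The SE of the Pim genes was 0.18 to 0.21 there, against 0.040 to 0.049 in the fit of replicate 3. Their log2 differences were -0.10 to -0.02, each smaller than its SE. Differences of the size seen in replicate 3 could not have passed there, so no conclusion is drawn from these fits. In replicates 1 and 2, 0 of 3 Pim genes passed in edgeR or DESeq2. There edgeR called 0.0796% of all genes in replicate 1 (0.0265% higher and 0.0531% lower) and 0.0531% in replicate 2 (0.0265% higher and 0.0265% lower).

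The pathway lists are given for replicate 3 as median log2 differences over the genes tested, as a description of that library. Over all 11308 genes the median was 0.005, or -0.001 with the length trend removed. Before removal, the middle 50% of genes lay from -0.17 to 0.18. The 14 cytokine receptor and JAK-STAT genes tested had a median of -0.21, or -0.14 with the length trend removed. Il6st had a log2 difference of -0.64 (SE 0.042) and Il6ra of -0.38 (SE 0.082), both before removal of the trend. The 10 NF-kappaB genes had a median of -0.05, or -0.03 with the trend removed. The 5 STAT-induced genes tested had a median of 0.16, or 0.02 with the trend removed.

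Among substrates, the median log2 difference was -0.14 for the 5 genes tested in apoptosis and drug export (-0.10 with the length trend removed). Values of single genes are those before removal. The 7 genes in the cell cycle had a median of -0.08 (0.07). In translation and mTOR signalling, the median of 5 genes was -0.15 (-0.09), with Eif4ebp1 at a log2 difference of 0.34 (SE 0.040). In transcription and chromatin, the median of 7 genes was -0.18 (-0.01), with Foxo3 at -0.73 (SE 0.080) and Myc at 0.06 (SE 0.043). The 9 stability and binding partners had a median of -0.02 (-0.05). That of the 9 parallel survival kinases tested was -0.14 (-0.06), and that of the 30 CAMK group kinases tested -0.09 (-0.05).

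**Figure D5:**
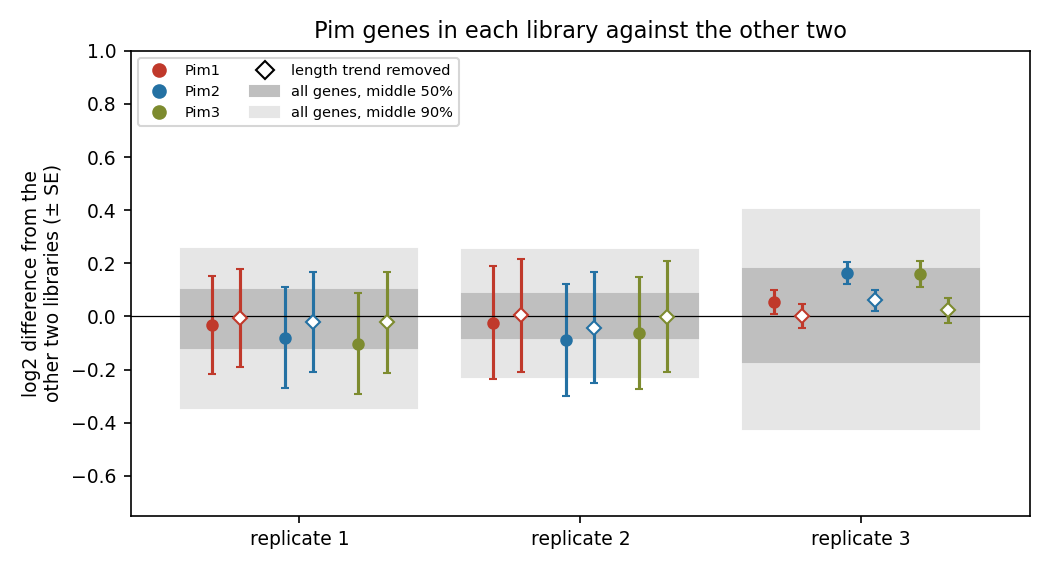
Log2 difference of each Pim gene in 1 library from the other two (filled, ± SE) and after removal of the length trend (open), over the middle 50% and 90% of all 11308 genes (grey). In replicate 3 Pim2 and Pim3 lie at 0.16 before and at 0.06 and 0.02 after removal, and all points lie within the middle 90% of genes.

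Plasma cell markers were high in all libraries, and markers of other cell types were low or at 0. Of 8 plasma cell markers, 7 were at 1 CPM or more in every library, the exception being Tnfrsf17 at 0.582 ± 0.145 CPM (SD, n = 3). The plasma cell factors Pou2af1, Xbp1 and Irf4 led them at 1218 ± 36.7, 1180.0 ± 48.3 and 978 ± 45.1 CPM (SD, n = 3). Among 9 markers of neutrophils and macrophages 0 reached that level (summed 0.328 to 0.623 CPM; S100a8 and S100a9 at 0), and among 8 of T and NK cells 0 did (summed 0.219 to 0.482 CPM; Cd3e and Ncr1 at 0). Of 8 B cell markers 2 reached it (Fcer2a and Ms4a1; Bcl6 and Cr2 at 0), of 6 erythroid and megakaryocyte markers 1 (Itga2b, with Epor and Pf4 at 0) and of 6 stromal and endothelial markers 1 (Pecam1, with Col1a2 at 0). Their summed levels were 5.12 to 10.2, 15.2 to 17.6 and 6.12 to 6.68 CPM.

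The sequences before the start sites differ between the genes. They are shown because the Pim2 window holds matches that the Pim1 and Pim3 windows do not. The bases come from RefSeq promoter windows (GRCm38.p6, plus strand), from chr17:29490535-29490752, chrX:7878056-7878261 and chr15:88861944-88862185, and end before every annotated start. Capitals mark matches on either strand to the octamer ATGCAAAT and to the CCAAT box.
Pim1: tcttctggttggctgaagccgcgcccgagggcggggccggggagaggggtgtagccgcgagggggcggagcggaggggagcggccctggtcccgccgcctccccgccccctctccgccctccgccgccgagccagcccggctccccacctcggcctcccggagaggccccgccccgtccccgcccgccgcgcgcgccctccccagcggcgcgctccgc
Pim2: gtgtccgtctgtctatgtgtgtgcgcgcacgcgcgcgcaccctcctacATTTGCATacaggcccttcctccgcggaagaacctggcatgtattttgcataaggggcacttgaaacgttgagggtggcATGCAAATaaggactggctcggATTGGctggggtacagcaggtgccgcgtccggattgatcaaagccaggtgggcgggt
Pim3: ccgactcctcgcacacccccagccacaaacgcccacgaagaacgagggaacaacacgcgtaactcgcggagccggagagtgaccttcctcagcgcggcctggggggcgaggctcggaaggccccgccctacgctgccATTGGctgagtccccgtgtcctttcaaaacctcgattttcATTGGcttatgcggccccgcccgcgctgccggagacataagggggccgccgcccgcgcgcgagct

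Pim2 held 2 matches to the octamer, 202 and 123 bases before the RefSeq start, and Pim1 and Pim3 held none. Of 32817 promoter windows of 300 bases, 1.74% held 1 match or more and 0.107% held 2 or more. The octamer is bound by the POU factors encoded by Pou2f1 and Pou2f2, with the B-lineage coactivator encoded by Pou2af1. Pou2af1 was at 478 ± 14.4, Pou2f1 at 2.55 ± 0.412 and Pou2f2 at 0.993 ± 0.0997 CPM per kilobase (SD, n = 3 for each). This motif was searched after the sequence had been seen, and binding was not measured.

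Pim3 held 2 matches to CCAAT and Pim2 held 1, a motif found in 37.4% of windows. None of the Pim windows matched the STAT site TTCNNNGAA, which 8.29% of windows held. In the first 200 bases of the window, 82.5% were G or C in Pim1, 65.0% in Pim3 and 57.5% in Pim2, against a median of 51.5% over all windows. RefSeq also gives Pim1 a second start inside the gene, whose window at chr17:29492835-29493134 held 1 match to CACGTG, an E-box of the kind that Myc binds, found in 7.15% of windows.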

How the data were processed

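Reads were handled with bcl2fastq, cutadapt 4.2, STAR and the mm10 build, per the submitters' processing notes. The authors deposited 1 table of raw counts by gene symbol for each sample. What counted the reads, with which annotation and strand setting, is not given in the sources used here. The 3 tables were assigned by sample title to 1 group. The cell type label of replicate 1 lacks a phrase on culture in bortezomib that the others carry. Totals were 62303493, 45705994 and 59402218 counts, and the limit for a gene at 0 is 3 counts (0.0482, 0.0656 and 0.0505 CPM, counting error only). Chi-square per degree of freedom between pairs was 4.0, 65.1 and 44.4 (1 and 2, 1 and 3, 2 and 3), so all were kept apart.

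GENCODE M21 (GRCm38) gave exon lengths for 98.8% of symbols. edgeR 4.0.16 (R 4.3.3) with TMM, filterByExpr and Benjamini-Hochberg adjustment at 0.05 was run over all genes. Its SE is the difference divided by the square root of F. Alternatives were RLE or no scaling, no filter, DESeq2 1.42.0, removal of a loess trend on length (span 0.3), other lengths, a pseudocount of 0.5, limits of 0.5 and 5 CPM, and leaving out each replicate. Python 3.11.15, pandas 2.3.3 and SciPy 1.17.1 were used. Promoter windows matched for 3 of 3 Pim genes. The members and lists were chosen with earlier results of these data known. Named are the Pim genes, list members beside their list's count (the 3 highest and those at 0 first), the 3 genes nearest in level, and neighbours. Pou2f1 and Pou2f2 were added after the promoter had been seen.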

Additional observations from a re-analysis of the deposited data

How the results depend on the processing

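The order of the Pim genes held under every setting run. The log2 ratio of Pim1 to Pim2 was 2.22 with the longest transcript as the length, 2.89 with the coding length and 2.62 without lengths, that of Pim1 to Pim3 was 3.89, 4.10 and 4.05, and that of Pim2 to Pim3 was 1.67 with the longest transcript and 1.42 without lengths. Leaving out each replicate gave 2.34 to 2.39, 3.55 to 3.61 and 1.21 to 1.23. Every library had the same order, so leaving 1 out was no test of it. In replicate 3, the Pim genes that passed fell from 2 to 1 with DESeq2 (Pim3 at a log2 difference of 0.15, adjusted p = 0.17) and to 0 with the length trend removed (Pim2 0.06, Pim3 0.02). The genes that passed there were 5834, against 3016 in DESeq2 and 3817 with the trend removed. The fits of replicates 1 and 2 held replicate 3 in their reference, with the wider spread given above, so their calls cannot be compared with these. Under TMM or RLE scaling the library sizes were set to keep the same mean, so the mean CPM was held nearly fixed. The SD did change: for Pim1 it was 19.9 CPM with TMM and 15.5 with RLE, against 8.45 with library totals. For Pim2 it was 9.23 and 8.52, against 7.33, and for Pim3 3.38 and 3.11, against 2.68. Leaving out a replicate gave means of 829 to 837, 131 to 138 and 49.0 to 51.5 CPM for Pim1, Pim2 and Pim3. A mean of 3 values cannot move by its SD that way, so this was no test. Of the 129 pathway genes, 96 were at 1 CPM or more in every library, 97 at 0.5 CPM and 89 at 5 CPM. Leaving out a replicate leaves 1 library against 1, so the calls could not be tested that way. No paired analysis was possible because there is 1 group. With 3 libraries, no ratio could reach p below 0.25.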
